A study of Mus musculus with 31 samples.

Results

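The 13 control libraries of a mouse brain study gave a baseline of brain RNA: which genes and RNA classes took the counts, and how far each gene varied between libraries that carried the same label. They were all the samples whose agent label reads control, 13 of 31, and the other 18 carry the agent label deltamethrin. Deltamethrin is an insecticide of the pyrethroid class, whose targets are the sodium channels of nerve cells. The study asked how exposure to deltamethrin during development changes gene transcription in the mouse brain. RNA came from aliquots of homogenised, halved brains, was purified with a column kit and was sequenced as total RNA on an Illumina NovaSeq instrument. Every control shares the tissue label brain. The labels give no strain, sex, age, dose, litter, hemisphere or time of collection, and they do not say what the controls were given in place of deltamethrin. They also do not say that the libraries came from separate animals, so the spread described here may be biological, technical or both. Replicates are numbered 1 to 13 in the order of the sample records, and the number has no other meaning.

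Total RNA holds far more than messenger RNA. Most RNA of a cell is ribosomal, from the nucleus and from the mitochondrion, and library kits remove it to differing degrees. Small structural RNAs such as the U2 spliceosomal RNA, the 7SK regulator of transcription and the RNA component of RNase P are also abundant. Among messenger RNAs, brain homogenate mixes neurons, astrocytes, oligodendrocytes, microglia and vessel cells with region-bound populations such as cerebellar granule cells, hypothalamic peptide neurons and the choroid plexus, the epithelium that secretes cerebrospinal fluid. In such bulk samples, fewer cells of a type and less RNA per cell cannot be told apart.

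The total count per library ran from 17570311 in replicate 2 to 35716869 in replicate 4, and between 25620 and 29369 genes had a count. All 78 pairs of libraries differed by more than counting noise, with a chi-square per degree of freedom of at least 11.8. Replicate 2 stood apart. It had the lowest total, the lowest scaling factor (0.666 against 0.896 to 1.1 in the others) and the highest share of mitochondrial ribosomal RNA. Replicates 1, 5, 7 and 10 each stood apart in 1 or more of the gene groups described below. In every control the X-inactivation RNA Xist had at most 6 counts, while counts of Ddx3y on the Y chromosome ran from 388 to 1626. Markers were checked against the label brain. All 10 pan-neuronal genes passed a mean of 1 CPM (the count of a gene relative to the scaled total of its library), while none of 5 pituitary genes, 1 of 6 leukocyte genes (Ptprc) and 1 of 5 skeletal muscle genes (Acta1) did.

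Protein-coding genes other than those of ribosomal proteins and the mitochondrion held 66.7% ± 11 of the counts (SD, n = 13), from 37.7% in replicate 2 to 76.6% in replicate 9. Mitochondrial ribosomal RNA came next with 16.2% ± 9.12, from 8.49% in replicate 5 to 40.2% in replicate 2. Without replicate 2 the mean of that class was 14.1% ± 5.80 (SD, n = 12). Long noncoding RNA held 3.62%, genes annotated as pseudogenes 3.19%, mitochondrial messenger RNA 2.97% and ribosomal protein messenger RNA 2.2%. The share of pseudogenes was the steadiest of these, between 2.8% and 3.85%. Most of the long noncoding share was 1 gene, Gm26917, with a mean of 25684 CPM. The pseudogene share includes Gm28437, Gm28661 and Gm10925 (7603, 4104 and 2959 CPM), whose bases match mitochondrial messenger RNA genes. The pseudogene and mitochondrial shares are therefore not cleanly separate. Ribozymes took 1.64%, the mixed class of other small RNAs 1.43%, genes annotated as microRNA 0.784%, nuclear-encoded ribosomal RNA 0.706% and small nuclear RNA 0.207%.

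**Figure D1:**
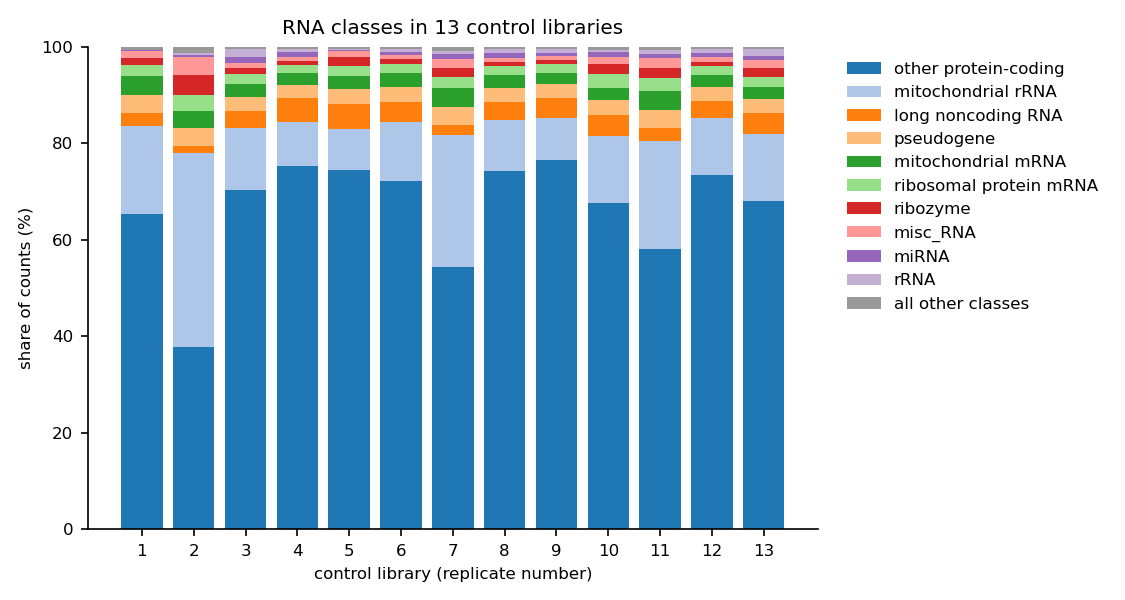
Share of counts (%, linear axis) by RNA class in each of the 13 control libraries, numbered as in the text; classes with a mean under 0.5% are drawn together in grey. Mitochondrial rRNA reaches 40.2% in replicate 2, where other protein-coding genes fall to 37.7%.

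The least steady class was nuclear-encoded ribosomal RNA. Its share was 0.00699% in replicate 1 and 1.59% in replicate 3, a ratio of 228. Small nuclear RNA varied by a ratio of 16.1, from 0.0451% in replicate 4 to 0.723% in replicate 2. Counts were concentrated in few genes: the 2 most abundant, mt-Rnr2 and mt-Rnr1, held 16.2%, the first 10 held 24.9%, and the first 1000 held 58.7%.

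Levels per length are given as CPM per kilobase of merged exon length, with CPM scaled by the trimmed mean of M values (TMM). CPM without that division counts long genes more heavily and does not rank their levels. Per length, the highest gene was Gm23935, annotated as a microRNA gene of 57 bases, at 130336 CPM per kb. It was followed by the mitochondrial 16S ribosomal RNA mt-Rnr2 at 92611, the RNase P RNA Rpph1 at 55744 and the mitochondrial 12S ribosomal RNA mt-Rnr1 at 30466 CPM per kb. Next came Gm24447 and Gm26315, 2 genes of the mixed small RNA class, at 17388 and 15586 CPM per kb. The cytochrome oxidase subunit gene mt-Co3 had 9752 and the pseudogene Gm28437 had 9710.1 CPM per kb. Length weighting moved the class order: per kb, protein-coding genes fell to 26.8% and genes annotated as microRNA rose to 21.7% of the summed level.

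Several of these names belong to sequences present at more than 1 place in the genome, so their counts cannot be assigned to 1 place. Gm28437 (chr1:24613189-24613971), annotated as a pseudogene on chromosome 1, matched mt-Co3 of the mitochondrial genome over all 783 bases with 0 differences. The first 120 bases of both, from GENCODE M21 (GRCm38), are shown because nothing in them tells the copies apart:
Gm28437: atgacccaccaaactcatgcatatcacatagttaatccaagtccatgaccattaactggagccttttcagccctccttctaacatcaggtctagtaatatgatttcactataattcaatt
mt-Co3: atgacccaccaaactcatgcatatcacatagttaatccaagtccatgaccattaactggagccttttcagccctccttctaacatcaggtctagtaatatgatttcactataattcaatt
The counts of both were nearly equal. Gm28437 had 7603 ± 4164 CPM (SD, n = 13) and mt-Co3 had 7645 ± 4184 CPM (SD, n = 13), and their ratio stayed between 0.981 and 1.0 in the 13 libraries. Its neighbours Gm28661 (chr1:24614885-24615565) and Gm10925 (chr1:24613974-24614651) likewise matched mt-Co2 over 681 bases and mt-Atp6 over 678 bases with 0 differences. Their ratios to those genes were 0.992 to 0.996 and 1.09 to 1.12. These 3 genes were the most abundant of the pseudogene class by count.

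Equal sequence did not always bring equal counts. Gm23935 (chr16:11144125-11144181, plus strand), Gm24270 (chr9:56223715-56223771, minus strand) and Gm24245 (chr4:139338304-139338360, plus strand) hold the same 57 bases, and Gm24187 (chr13:9834469-9834525, minus strand) differs by G11A, counted from 1 at the 5′ end with the base of Gm23935 first and the capital marking the change:
Gm23935: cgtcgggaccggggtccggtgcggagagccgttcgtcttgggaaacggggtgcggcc
Gm24270: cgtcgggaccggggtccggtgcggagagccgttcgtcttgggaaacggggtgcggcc
Gm24187: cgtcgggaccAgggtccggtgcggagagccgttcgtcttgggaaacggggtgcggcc
Gm23935 had 7429 ± 2828 CPM (SD, n = 13), Gm24270 229.8 ± 123 CPM (SD, n = 13) and Gm24245 only 0.728 CPM. The ratio of Gm23935 to Gm24270 was not constant either, running from 22.7 to 329. The sequence around these genes could not be inspected, and what sets their counts apart was not tested.

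A similar split touched other well-known RNAs. Rn7sk, the gene of the 7SK RNA, had 0 counts in all 13 libraries, where 3 counts would be 0.00782 CPM over their 383396044 counts. Gm24447 and Gm26315, which share 211 of 308 and 205 of 291 stretches of 31 bases (31-mers) with it, had 5877 ± 4533 CPM (SD, n = 13) and 5003 ± 3915 CPM (SD, n = 13). The glycolytic enzyme gene Gapdh had 83.3 ± 12.8 CPM (SD, n = 13). Its processed pseudogene Gm7336, at 704 CPM, shares 1169 of its 1202 31-mers with Gapdh. CT010467.1 (chr17:39846353-39848827, minus strand), which alone carried the ribosomal RNA class, holds every 31-mer of AY036118 (893), and AY036118 had 0 counts. How the authors' counting treated reads that match several genes is not given in the sources used here.

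Among protein-coding genes outside the mitochondrion and the ribosomal proteins, the highest levels per length were those of Selenow, a selenoprotein gene, at 1214 CPM per kb and Eef1a1, the translation elongation factor, at 932. The ubiquitin gene Ubb had 812, the cysteine protease inhibitor Cst3 686, the cytochrome oxidase subunit Cox8a 654 and the calmodulin genes Calm2 and Calm3 626 and 539.8 CPM per kb. The postsynaptic calmodulin-binding protein gene Nrgn had 493, and Ttr, the transthyretin gene made by the choroid plexus, at 482 CPM per kb. The 3 largest counts of the class, not divided by length, belonged to Mbp of the myelin sheath with 2673 ± 377 CPM (SD, n = 13), Eef1a1 with 2323 ± 426 CPM (SD, n = 13) and the neuronal kinesin heavy chain Kif5a with 2288 ± 705 CPM (SD, n = 13). The lowest Kif5a value was in replicate 2 (787 CPM). Among genes annotated as long noncoding RNA, Gm26917 had by far the largest count, with a mean of 25684 CPM, or 7715 CPM per kb. The nuclear long noncoding RNA Malat1 had 1969 ± 309.7 CPM (SD, n = 13).

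Marker lists ranked the brain's cell types by the median level of their genes. The erythroid list had 229.9 CPM per kb, the pan-neuronal list 70.1, oligodendrocytes 54.6, GABAergic neurons 20.9, astrocytes 19.3 and glutamatergic neurons 15.5 CPM per kb. Microglia had 7.09, endothelium 3.20, oligodendrocyte precursors 2.68 and mural cells 2.48 CPM per kb. These medians describe the genes listed and are not proportions of cells. Within lists, levels spread widely: choroid plexus genes ran from 0.369 CPM per kb in Prlr to 482 in Ttr. The haemoglobin genes Hbb-bs, Hba-a2, Hbb-bt and Hba-a1 stood at 359, 238, 229.9 and 219 CPM per kb. Hba-a1 and Hba-a2 share 588 of the 635 31-mers of Hba-a2, so their separate values are uncertain.

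Sodium channels are the targets of pyrethroids, and the 10 sodium channel genes examined here were all above 1 CPM on average. Sodium channel genes outside this list were not examined. Among the pore-forming subunits Scn2a had 280.3, Scn8a 198 and Scn1a 136 CPM, equal to 22, 12.5 and 12.2 CPM per kb. Scn3a stood at 2.98 CPM per kb, and Scn9a at 0.331. The accessory subunit gene Scn2b had the largest SD of the 10 sodium channel genes (0.57), with values from 91.7 CPM in replicate 2 to 355 CPM in replicate 4.

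Spread was measured as the standard deviation (SD) of log2 CPM over the 13 libraries, for the 15648 genes with a mean of 1 CPM or more. The median SD was 0.26, and the quartiles were 0.19 and 0.35. An SD of 0.5 or more was found for 1231 genes (7.87%), an SD of 1 or more for 62, and an SD under 0.1 for 205. Counting alone would give a median SD of 0.065, and the SD of 1227 genes was within 1.5 times its own counting value. Spread followed abundance only in part. The median SD was 0.38 for genes at 1 to 3 CPM, 0.22 at 10 to 30 CPM and 0.28 at 100 CPM or more. Without replicate 2, 711 genes had an SD of 0.5 or more.

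**Figure D2:**
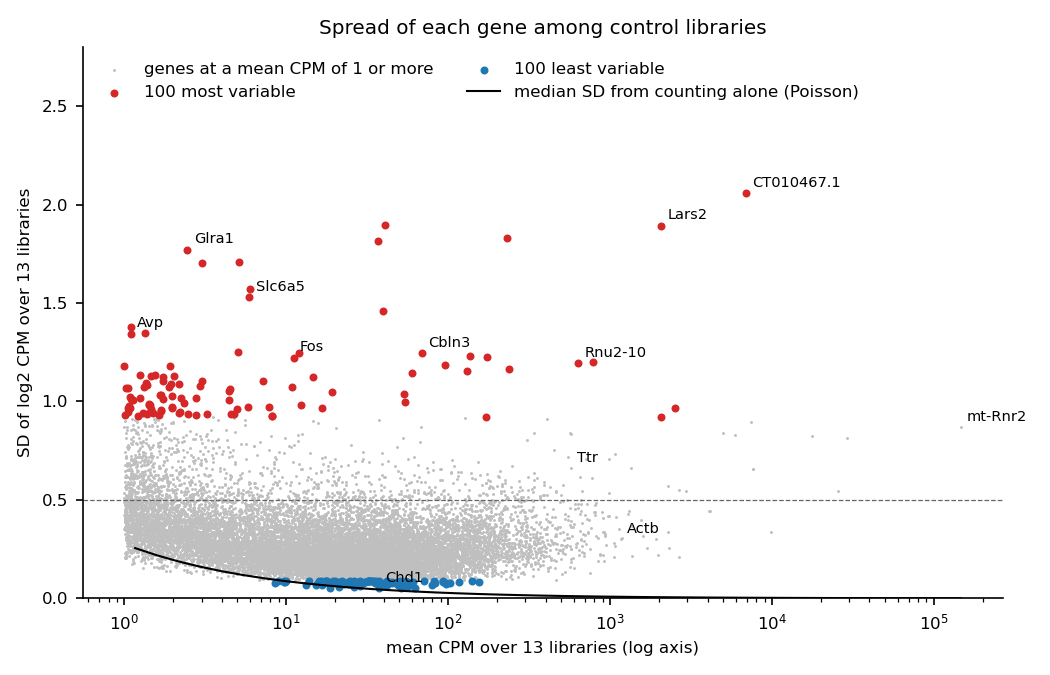
Spread of each gene, as the SD of log2 CPM over 13 control libraries, against its mean CPM (log axis). Red and blue points are the 100 genes with the largest and the smallest SD, the black line is the SD that counting alone gives, and the dashed line is an SD of 0.5; Lars2 and CT010467.1 lie above 1.8 at more than 2000 CPM, far above the counting line.

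RNA classes differed in spread. All 24 small nuclear RNA genes tested, all 6 small Cajal body RNA genes, all 11 genes of the mixed small RNA class and both ribozymes had an SD of 0.5 or more. So did 173 of 274 genes whose biotype is still to be settled in the annotation, 33 of 86 ribosomal protein genes, 128 of 704 pseudogenes and 170 of 855 long noncoding RNAs. The share was 7.87% over all genes tested and 23.8% over those at 1 to 3 CPM. Pseudogenes (18.2%) and long noncoding RNAs (19.9%) were not compared at matched level, so class and level cannot be told apart for them. Among other protein-coding genes the count was 645 of 13579 (4.75%), and their median SD was 0.24. Part of this came from single libraries. Replicate 2 was the highest library for 24 of 24 small nuclear RNAs and 85 of 86 ribosomal protein genes, and replicate 4 was the lowest for 16 and 82 of them. Over all genes tested, replicate 2 was the highest library in 20.3% and replicate 4 the lowest in 14.1%. The 24 small nuclear RNAs are not all separate measurements, since Rnu2-10, Gm24950 and Gm23971 hold the same bases. Without scaling factors, 21 small nuclear RNA genes had a mean of 1 CPM or more, so the filter rests in part on the scaling. Without replicate 2 the median SD fell from 1.06 to 0.75 for small nuclear RNAs and from 0.46 to 0.32 for ribosomal protein genes.

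The most variable gene was CT010467.1, with lowest, median and highest values of 67.9, 7285 and 15206 CPM and an SD of 2.06. The low values were those of replicate 1 (67.9 CPM) and replicate 5 (963), and the high ones those of replicates 3 and 13 (15206 and 12408). Lars2, which encodes the mitochondrial leucyl-tRNA synthetase, followed the same order at its ends, with 34.1, 2115 and 4184 CPM and an SD of 1.89. It held 34.1 CPM in replicate 1, 369 in replicate 5 and 4184 in replicate 3. The long noncoding RNA Gm15564 had 0.631, 42.1 and 75.6 CPM, the microRNA-annotated genes Gm24270 and Gm24187 shown above had SDs of 1.83 and 1.82, and Mir6236 and Gm25911 had 1.71 and 1.57. With Gm23935 these are 8 genes, singled out after their values were seen. Replicate 1 was the lowest and replicate 3 the highest library in all 8, against 7.86% and 2.59% of all genes tested. The 8 are not all separate measurements. Gm23935 and Gm24270 hold the same bases, and Gm24187 differs from them by 1. Gm15564 shares some sequence with Lars2, and its ratio to Lars2 stayed between 0.0177 and 0.0209. Without replicate 1 the SDs of CT010467.1 and Lars2 were 1.01 and 1.06. The long noncoding RNA Gm26917 (chr17:39843013-39846341, on the plus strand) ends next to CT010467.1 and did not follow it: it held 19636 CPM in replicate 1 and 39152 in replicate 5, and its lowest value was in replicate 7 (10697).

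Small nuclear RNAs of the U2 type formed a second set of variable genes. U2 pairs with the branch point of introns during splicing. Rnu2-10 (chr11:101658238-101658428) and Gm24950 have the same 191 bases, Gm23472 differs by G109C and Gm24497 by G109C and C186A (the base of Rnu2-10 first, counted from 1 at the 5′ end), and the capitals mark these positions:
Rnu2-10: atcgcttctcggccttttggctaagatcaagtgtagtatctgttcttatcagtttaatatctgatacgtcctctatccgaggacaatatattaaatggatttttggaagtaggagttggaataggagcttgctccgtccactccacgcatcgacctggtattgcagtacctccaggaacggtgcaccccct
Gm23472: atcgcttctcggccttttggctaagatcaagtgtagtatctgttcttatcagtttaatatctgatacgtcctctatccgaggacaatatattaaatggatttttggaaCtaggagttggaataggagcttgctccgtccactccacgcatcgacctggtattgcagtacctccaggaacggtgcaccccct
Gm24497: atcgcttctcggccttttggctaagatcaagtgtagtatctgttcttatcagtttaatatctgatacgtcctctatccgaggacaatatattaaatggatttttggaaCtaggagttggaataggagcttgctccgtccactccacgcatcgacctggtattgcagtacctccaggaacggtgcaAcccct
Rnu2-10 had lowest, median and highest values of 97.3, 384 and 2966 CPM, and Gm24497 had 27.5, 96.7 and 812 CPM. Both were highest in replicate 2 and lowest in replicate 4, and replicate 7 was second highest for both (819 and 271 CPM). Their SDs were 1.20 and 1.22, and 0.90 and 0.93 without replicate 2. Other structural RNAs had their highest value in the same library. Rpph1 had 8365 to 63625 CPM (median 14367), Rmrp, the RNA of RNase MRP, 3.49 to 47.7 CPM (median 7.56) and the small nucleolar RNA Snora23 1.41 to 55.7 CPM (median 8.53).

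Several protein-coding genes among the 20 most variable are known for restricted expression in the brain. Glra1, a glycine receptor subunit, had lowest, median and highest values of 0, 1.84 and 7.44 CPM, with 0 counts in replicate 1, where 3 counts would be 0.118 CPM. Slc6a5, the glycine transporter of inhibitory neurons in the hindbrain and spinal cord, had 0.276, 4.29 and 18.1 CPM. Both were lowest in replicate 1 and highest in replicate 9 (7.44 and 18.1 CPM), with replicate 5 next (6.54 and 16.5 CPM). Skor1, a transcriptional corepressor gene, also had 0 counts in replicate 1. Without replicate 1 the SDs of Glra1, Slc6a5 and Skor1 went from 1.77, 1.53 and 1.35 to 1.17, 1.16 and 0.57.

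Cerebellar genes showed the same low library. All 9 members of the cerebellum list were lowest in replicate 1, against 7.86% of all genes tested. An SD of 0.5 or more was found for 8 of 9, against 7.87% of all genes tested. Cbln3, a granule cell gene, had 6.23 to 115 CPM (median 84.3), Fat2 10.6 to 118 CPM, and Gabra6, a GABA receptor subunit of granule cells, 7.57 to 51.2 CPM (median 41.7). The Purkinje cell genes Pcp2 and Car8 had 4.49 to 30.7 and 25.1 to 150.2 CPM. As the mean log2 CPM of its members, the list stood at -2.36 from the median library in replicate 1 and at -0.99 in replicate 7. Its SD over libraries was 0.74, and 0.41 without replicate 1.

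Other regional lists named further libraries. The thalamus list was lowest in replicate 1 (-0.89 from its median library on the log2 scale), with Prkcd at 17.3 CPM there against a median of 52.6. The striatum list was highest in the same library (0.63). None of its 10 members had an SD of 0.5 or more, a count near the 7.87% of all genes tested. Adora2a, the adenosine receptor of striatal projection neurons, had 40.2 to 82.6 CPM (median 57.1). The hypothalamus list was low in replicates 1 and 7 (-1.19 and -1.22), and 4 of its 8 members above 1 CPM had an SD of 0.5 or more. That share was 7.87% of all genes tested and 23.8% of those at 1 to 3 CPM. The vasopressin gene Avp had 0.0854 to 3.92 CPM (median 0.727) and an SD of 1.34, where counting alone gives 0.26 at its mean level. Pomc, the precursor of melanocortins, had 2.08 to 5.21 CPM (median 2.51). The olfactory bulb list, of which 3 genes passed, was lowest in replicate 7 (-1.34) and highest in replicate 6 (1.14). Regional lists did not share 1 order of libraries.

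**Figure D3:**
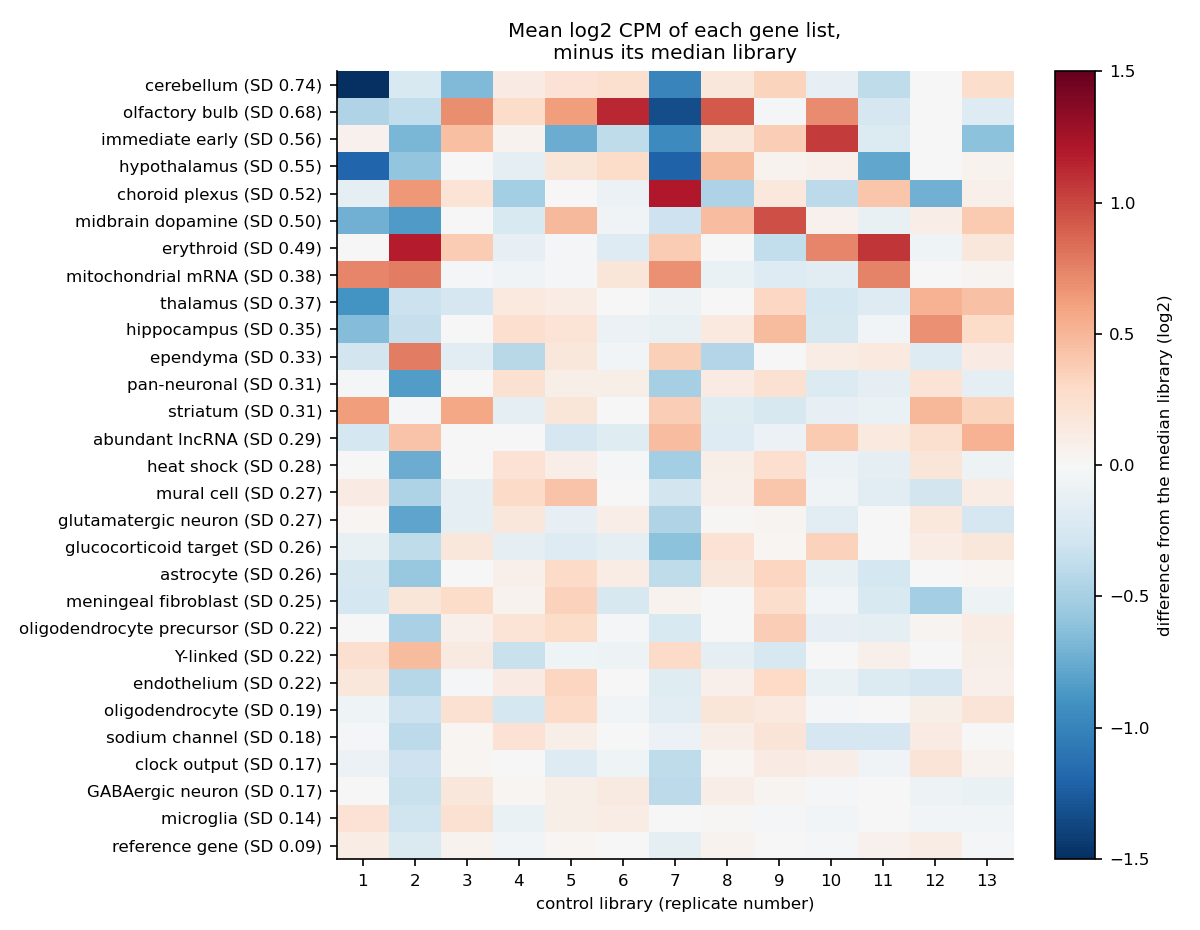
Mean log2 CPM of each gene list in each control library, minus the value of the list's median library; lists are ordered by their SD, printed beside each name, and the darkest blue also stands for values past the end of the colour scale (cerebellum in replicate 1, -2.36). The cerebellum and hypothalamus lists are low in replicates 1 and 7, the choroid plexus list is high in replicate 7, the immediate early list is high in replicate 10, and the reference genes at the bottom have an SD of 0.093.

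The choroid plexus list had 9 of 12 members with an SD of 0.5 or more, against 7.87% of all genes tested, and its SD as a list was 0.52. Replicate 7 was the highest library for 9 of the 12 and replicate 12 the lowest for 8, against 6.79% and 2.64% of all genes. Ttr had lowest, median and highest values of 243, 484 and 1125 CPM, the prolactin receptor gene Prlr 2.27, 4.62 and 16 CPM, and the potassium channel subunit Kcne2 1.22, 2.35 and 9.39 CPM. Otx2, a transcription factor gene of the choroid plexus, was the steadiest member, with an SD of 0.34. Without replicate 7 the SD of the list was 0.40.

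Immediate early genes, which neurons switch on within minutes of activity, were another variable group. Of 17 members, 12 had an SD of 0.5 or more, against 7.87% of all genes tested. Replicate 10 was the highest library for 13 of the 17 and for 10.8% of all genes. Fos had 2.28, 7.85 and 42.1 CPM as its lowest, median and highest values. Replicate 10 stood alone at the top, with replicates 3 and 9 next (18.7 and 16.4 CPM), and replicates 7, 13 and 5 were at 2.28, 2.83 and 3.06 CPM. Npas4, a neuron-specific member, had 2.84 to 34.8 CPM (median 13.3), Arc 45.8 to 224 CPM (median 94.3) and Junb 25 to 139 CPM. Jun, Nr4a2 and Nr4a3 were steadier, with SDs of 0.28, 0.35 and 0.30. Without replicate 10 the SD of the list went from 0.56 to 0.46. None of the 10 clock output genes reached an SD of 0.5, a count near the 7.87% of all genes tested. Per1, a clock gene that neuronal activity also induces, had 41.4 to 100.3 CPM (median 63.5) and was highest in replicate 10, while Dbp had 64.9 to 93.5 CPM (median 81.7) and was highest in replicate 11.

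**Figure D4:**
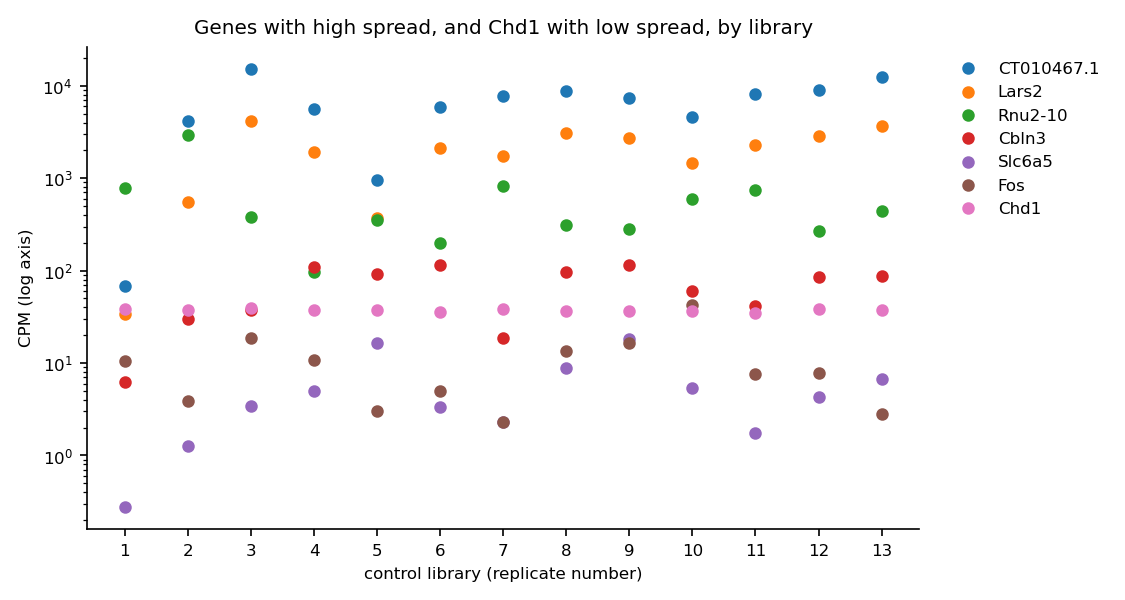
CPM (log axis) of 6 genes of high spread and of Chd1, of low spread, in each control library. CT010467.1 and Lars2 are lowest in replicates 1 and 5, Rnu2-10 is highest in replicate 2, Cbln3 and Slc6a5 are lowest in replicate 1 and Fos is highest in replicate 10, while Chd1 stays between 34.5 and 39.0 CPM.

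Among cell types found throughout the brain, no pan-neuronal, astrocyte, oligodendrocyte, oligodendrocyte precursor, microglial or mural cell gene reached an SD of 0.5. In the glutamatergic, GABAergic and endothelium lists 1 member each did: Slc17a6 (SD 0.51), Slc32a1 (0.51) and Cdh5 (0.53). Taken list by list, at these list sizes, such counts are near the 7.87% of all genes tested. The list SDs were 0.14 for microglia, 0.19 for oligodendrocytes, 0.26 for astrocytes and 0.31 for pan-neuronal genes. Replicate 2 held the lowest value of 9 of the 10 pan-neuronal genes and of 28.8% of all genes tested. Snap25, of the synaptic vesicle fusion machinery, had 528 CPM there against a median of 1212, and Syp, a synaptic vesicle protein, 209.8 against 552. Without replicate 2 the pan-neuronal SD was 0.22. C1qc, of the complement component made by microglia, was the steadiest microglial gene, with 16.8 to 23.8 CPM and an SD of 0.13.

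Genes of red blood cells, vessels and mitochondria gave further orders of the libraries. The erythroid list was highest in replicates 2 and 11 (1.18 and 1.07 from its median library on the log2 scale). All 5 members were lowest in replicate 9, against 7.21% of all genes tested. The 5 are not all separate measurements. Hba-a2 shares 588 of its 635 31-mers with Hba-a1, and Hbb-bt 400 of its 673 with Hbb-bs. Hbb-bs, an adult beta globin gene, ran from 158 CPM in replicate 9 to 589 CPM in replicate 2 (median 226). Alas2, which starts haem synthesis in red cell precursors, ran from 2.45 CPM in replicate 9 to 6.82 CPM in replicate 11 (median 4.33). The tight-junction gene Cldn5 of endothelium ran from 16.9 CPM in replicate 12 to 30.8 CPM in replicate 5 (median 22.1), and Pdgfrb, the growth factor receptor of pericytes, from 8.37 CPM in replicate 2 to 16.9 CPM in replicate 4 (median 13.1). The aquaporin gene Aqp4 of astrocyte endfeet ran from 51.9 CPM in replicate 11 to 100.1 CPM in replicate 5 (median 72.7), and the astrocyte filament gene Gfap from 68.6 CPM in replicate 2 to 153 CPM in replicate 9 (median 118). Mitochondrial messenger RNAs were high in replicates 1, 2, 7 and 11 (0.74, 0.76, 0.69 and 0.75). An SD of 0.5 or more was found for 4 of 13, against 7.87% of all genes tested.

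The 20 least variable genes had SDs from 0.051 to 0.071. Counting alone gives 0.031 for Lonp2 and 0.076 for Wdr45, whose measured SDs were 0.068 and 0.070. Chd1, a chromatin remodeler, had 34.5 to 39.0 CPM (median 37.2) and an SD of 0.051 where counting gives 0.045. Without scaling factors its SD was 0.20. Kdm1a, a histone demethylase, had 48.7 to 55.0 CPM (median 50.2), and Zc3h14, a poly(A)-binding protein gene, 53.2 to 59.8 CPM (median 55.0). Also among the 20 were Tmeff2, Scyl3, Heatr3, Mia2, Cog3 of the Golgi tethering complex, Tapt1, Atp1b3 of the sodium pump, Ugdh, Ddhd1, Akr1e1, Lonp2 of the peroxisome, Med17 of the Mediator complex, Wdr45, Mrpl3 of the mitochondrial ribosome, Tle1, Tlk2 and Gzf1. Of the 100 least variable genes, 99 were protein-coding and their mean levels lay between 8.50 and 156 CPM. The 100 most variable genes held 37 other protein-coding genes, 21 of unsettled biotype and 19 small nuclear RNAs, with a median level of 2.4 CPM.

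None of the 15 genes in common use as references was among the 100 least variable. None reached an SD of 0.5 either, a count near the 7.87% of all genes tested. Tbp, the TATA-binding protein, was the steadiest with 16.3 to 21.1 CPM (median 17.6) and an SD of 0.10. B2m, Tfrc and Gusb had SDs of 0.17, 0.17 and 0.18. Actb had 646 to 1397 CPM (median 1233) and an SD of 0.30, with its lowest value in replicate 2, and 0.18 without that library. Rpl13a had the largest SD of the 15 (0.44) and was highest in replicate 2. The mean log2 CPM of all 15 had an SD of 0.093, and of 0.26 without scaling factors.

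The list values moved with the share of mitochondrial ribosomal RNA in a library. Of 26 lists tested, 18 correlated with it at an adjusted p under 0.05 for Pearson's r, 15 of them negatively, and 14 of the 18 also did so for Spearman's rho. The matching share over all genes is not given here, so this count is not read as particular to the lists. Replicate 2, where the mitochondrial share was highest, was the lowest library for 28.8% of all genes tested and the highest for 20.3%. The astrocyte list had the closest relation (r = -0.96, rho = -0.92, adjusted p = 0.00013 and 0.00156, permutation test, n = 13). Its r, leaving out the 2 libraries whose share lay farthest from the median, was -0.92. The heat shock list (r = -0.93, rho = -0.89, adjusted p = 0.00013 and 0.00156, permutation test, n = 13) and the pan-neuronal list (r = -0.92, rho = -0.87, adjusted p = 0.00026 and 0.00169, permutation test, n = 13) were also lower where the share was higher, with r of -0.80 and -0.75 without those 2 libraries. The erythroid list rose with the share (r = 0.79, rho = 0.82, adjusted p = 0.00715 and 0.00572, permutation test, n = 13), and r was 0.73 without the 2 libraries. The relation rested in part on replicate 2, since 7 of 26 lists passed without it and 9 of the 18 had an unadjusted p under 0.05 without the 2 farthest libraries. For the microglia, striatum, immediate early and meningeal fibroblast lists the adjusted p was 0.236, 0.605, 0.203 and 0.701 for r (permutation test). The share and the list values come from the same counts, and what ties them was not tested.

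Lists also correlated with each other, in all 8 pairs examined by Pearson's r and in 4 of them by Spearman's rho at an adjusted p under 0.05. Endothelium and mural cells had the closest relation (r = 0.97, rho = 0.98, adjusted p = 8e-05 and 8e-05, permutation test, n = 13). Choroid plexus and ependyma had r = 0.74 and rho = 0.77 (adjusted permutation p = 0.00986 and 0.00736). Immediate early and clock output genes had r = 0.73 and rho = 0.68 (adjusted permutation p = 0.00986 and 0.0268). Leaving out the 2 farthest libraries gave r of 0.94, 0.78 and 0.65 for these 3 pairs and 0.66 for pan-neuronal and astrocyte genes. A further 3 pairs rested on those libraries: r went from 0.75 to 0.056 for glutamatergic and GABAergic neurons, from 0.69 to 0.44 for oligodendrocytes and astrocytes, and from 0.58 to 0.37 for hypothalamus and thalamus. The striatum and cerebellum lists went opposite ways (r = -0.62, adjusted permutation p = 0.0126), but r was -0.29 without the 2 farthest libraries, so this relation rests on those samples. Without replicate 2, 5 of the 8 pairs passed. Most of the paired lists also correlated with the mitochondrial ribosomal RNA share, such as endothelium (r = -0.78) and mural cells (r = -0.80). The striatum, cerebellum, immediate early and thalamus lists did not pass for that share by Pearson's r. By Spearman's rho the cerebellum and thalamus lists did (rho = -0.66 and -0.63, adjusted permutation p = 0.041 and 0.044). What ties the lists of a pair was not tested.

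The 18 deltamethrin libraries, scaled on their own and not used in the ranking, gave the same measure in other samples. The 100 most variable genes of the controls had a median SD of 0.78 there, and 98 of 100 had an SD of 0.5 or more, against 5.23% of all genes tested in those libraries. CT010467.1 had an SD of 1.78, Lars2 1.75, Rnu2-10 1.51, Slc6a5 1.24, Cbln3 0.97 and Fos 0.89. Glra1 went from 1.77 to 1.12 and Avp from 1.34 to 0.66. The 2 groups' own lists of 100 most variable genes shared 52 genes. The 100 least variable genes of the controls had a median SD of 0.11 in the other libraries, and all 100 were below the median of all genes there (0.24), yet only 17 were among the 100 least variable of that group. Kdm1a (0.056) and Lonp2 (0.059) kept low SDs, and Wdr45 had 0.16. No test between the groups was made.

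**Figure D5:**
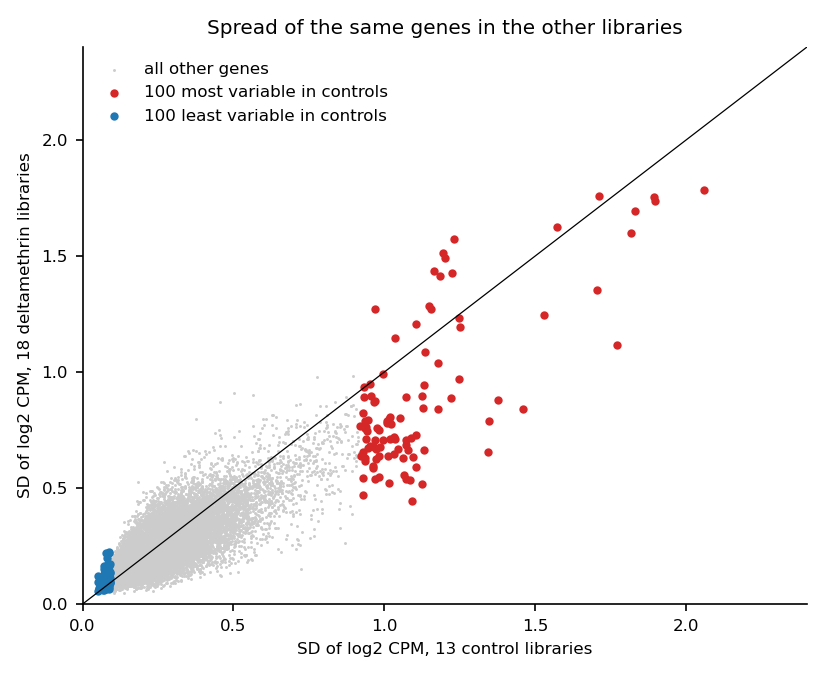
SD of log2 CPM in the 18 deltamethrin libraries against that in the 13 control libraries, 1 point per gene, with the line of equality. The 100 genes most variable in the controls (red) have a median of 0.78 in the other libraries, and the 100 least variable (blue) a median of 0.11.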

How the data were processed

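The deposited file is 1 matrix of read counts, not normalized, with an Ensembl gene in each row. Trimmomatic, HISAT2, SAMtools and MultiQC and the build GRCm38 are named in the submitters' processing notes. The counting tool, the annotation, the handling of reads with several matches and any use of strand are not given in the sources used here. Columns were matched to samples by the number in their titles.

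Of 48795 genes, 48435 (99.3%) were matched by ID to GENCODE M21 (GRCm38), which gave biotypes, exon lengths, sequences and coordinates. CPM and log2 CPM (prior count 2) came from edgeR 4.0.16 in R 4.3.3, with TMM factors over the 13 controls; the RNA class shares use unscaled counts. Counting SDs are Poisson values. List values are means of log2 CPM over members at a mean of 1 CPM or more. Correlations were tested by two-sided permutation with 100000 resamples (the smallest p is 1e-05), with Benjamini-Hochberg adjustment over 26 lists or 8 pairs. No test between groups was made; the spread in the deltamethrin libraries is set beside that in the controls as a description.

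The rule for genes that could be named took the 3 most abundant of each class with 0.1% or more of counts, the 20 most and 20 least variable genes, the reference genes, and in each list the members with the highest level, highest SD and lowest SD. Not all of these are printed. Other list members and the genes that share sequence were named after their values were seen. The libraries, lists and measures were chosen with earlier results of these data known, so none of them is independent evidence. Alternatives were other scaling factors, filters, prior counts and spread measures, thinning to the smallest total, and leaving out each library. Values of some list members are not reported here. The protein activity arm was not used. The report gives the lowest and highest total count; the count limit of 3 for a gene at 0 covers counting error only.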

Additional observations from a re-analysis of the deposited data

How the results depend on the processing

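The number of genes with an SD of 0.5 or more was 1231; it was 2261 without scaling factors, 387 at a mean of 10 CPM or more, 11215 with no filter on low counts, 682 among protein-coding genes, and 711 (without replicate 2) to 1386 when 1 library was left out. Of the 100 most variable genes, 56 were shared when the median absolute deviation ranked them, 27 at 10 CPM or more, and 72 to 98 when 1 library was left out. Of the 100 least variable, 16 were shared under the median absolute deviation and 55 to 89 when 1 library was left out, the low counts coming without replicate 1 (56), 2 (55) or 7 (56).

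Per kb of exon, the class shares were 26.8% for other protein-coding genes, 1.87% for long noncoding RNA, 7.46% for pseudogenes, 5.01% for mitochondrial messenger RNA, 7.80% for ribozymes and 6.74% for other small RNAs. Without mitochondrial ribosomal RNA they were 79.1% for other protein-coding genes, 3.89% for pseudogenes, 3.66% for mitochondrial messenger RNA and 2.71% for ribosomal protein genes.

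The number of lists correlated with the mitochondrial ribosomal RNA share was 7 to 20 when 1 library was left out, and the number of pairs 5 to 8. The striatum list turned from r = 0.17 to -0.33 without scaling factors. When 1 library was left out, r for microglia ran from -0.52 to 0.13 and for meningeal fibroblasts from -0.38 to 0.031; none of these passed the threshold with all libraries. The cause was not tested. Of 140 SDs of the 20 least variable genes under other settings, 54 moved beyond their replicate error, against 2 of 140 for the 20 most variable. Low-level genes such as Glra1 and Avp carry counting error, and no paired analysis was possible because the controls are 1 group and no test was made between groups.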

Other observations

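Genes whose biotype is still to be settled in the annotation often had their highest value in 1 library. Replicate 7 was the highest library for 167 of the 274 tested, against 6.79% of all genes. The most abundant of them, 9330162G02Rik (chr7:59223847-59254788), had 86.4 CPM there and 19.1 CPM in replicate 9. Snhg14 and Kcnq1ot1, long transcripts of imprinted regions, were also highest in replicate 7 (534 and 89.6 CPM against medians of 275 and 40.3). Meg3, Neat1, Miat and Snhg11 were instead highest in replicate 13, with 749, 37.7, 100.4 and 696 CPM. Rian, transcribed from the same imprinted region as Meg3, was steadier, with an SD of 0.27 against 0.52.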
